A study of Mus musculus with 9 samples.

Results

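The genes described here are the 80 genes for proteins of the cytosolic ribosome whose symbols follow the usual pattern (Rpl or Rps with a number, and Rpsa, Rplp0, Rplp1 and Rplp2) and that had at least 1000 UMIs over all cells kept. A UMI (unique molecular identifier) is 1 counted RNA molecule. The pattern matched 83 of the 32286 features, and 3 paralogues fell below the limit, Rpl10l with 0 UMIs, Rpl3l with 36 and Rpl39l with 59. The members nearest above it were Rpl7l1 with 34911 UMIs, Rps27l with 152960 and Rps18 with 186281. Of the members, 48 belong to the large subunit and 32 to the small subunit, and together they took 18.3% of all UMIs of the kept cells. Fau, whose product also carries a subunit protein, lies outside the pattern and is given with the related genes.

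A ribosome holds about equal numbers of its protein subunits, so cells make these proteins in step. Most of their mRNAs begin with a C followed by a run of pyrimidines, the 5′ terminal oligopyrimidine (TOP) motif, through which mTOR signalling and the RNA-binding protein Larp1 set their translation and stability. Ribosome synthesis is high in growing and dividing cells and is driven by Myc. A surplus of the Rpl5 and Rpl11 proteins, carried on 5S rRNA, binds Mdm2 and so stabilises p53.

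Whole primary tumours grown from 168FARN cells, a mouse mammary carcinoma line, in the mammary fat pad of female BALB/c mice (bought at 5 to 6 weeks of age) were dissociated, and cell suspensions were sequenced as 5′ single-cell libraries, 3 tumours per genotype (WT, Kmt2c KO, Kmt2d KO). Kmt2c and Kmt2d are enhancer H3K4 methyltransferases. Each KO is a sorted pool made with guides against exon 1, without independent KO lines, so the 3 libraries of a genotype replicate the tumour and the mouse but not the knockout, and p values measure the spread between tumours of 1 cell population. All injected cells, WT included, carry an H2B–mCherry reporter (H2BMc), while the cells of the host mouse carry neither edit nor reporter. A barcode was kept if it had over 500 but under 7500 detected genes and a mitochondrial share of UMIs under 15%, and 58645 of the 89147 barcodes in the 9 libraries passed.

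The libraries differed in size and quality. WT libraries held 939 to 2380 kept cells against 5997 to 14525 in the KO libraries, and the mitochondrial limit removed 50.7% of barcodes in WT library 1 and 68.5% in WT library 3, against 13.0% to 29.5% in the other libraries. Tumour cells were taken as the 16707 kept cells with at least 1 H2BMc UMI (361 to 925 per WT library, 1851 to 3434 per KO library). Of these, 79.9% had a Krt8 UMI, while Epcam and Krt18 were at or near 0 CPM (UMIs per 1000000 UMIs). The reporter itself averaged 80.6, 113 and 72.7 CPM in the WT libraries and 142 to 153 CPM in the Kmt2c KO libraries. These cells were picked by having at least 1 such UMI, which sets a higher floor of CPM in shallower cells. The median cell was shallower in Kmt2c KO, so these levels do not compare reporter expression between genotypes. Krt8 itself measured 569, 564 and 550 CPM in the WT libraries against 235 to 339 CPM in Kmt2c KO and 304 to 466 CPM in Kmt2d KO, and its part in the results below was not tested. A UMI of Kmt2c or Kmt2d marks the 5′ end of the transcript and survives small indels in exon 1, so the counts of both genes check no label. Of 56715 barcode sequences kept, 1889 occurred in 2 or more libraries.

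Start sites are shown for 7 members on which the results turn, the 4 that fell most and 3 of the 5 that stood highest in Kmt2c KO tumour cells, because the TOP motif sits there. Each sequence runs 5′ to 3′ over 15 bases on either side of the start annotated by RefSeq (build GRCm38.p6). Capitals mark a C followed by at least 4 pyrimidines that begins within 5 bases of that start. In Rpl7a the pyrimidines extend further upstream, and only the part from the first C within those 5 bases is marked. The sequences of Rpl13 and Rpl24 hold no such run, and a pyrimidine stretch of Rpl13 that lies further upstream was not counted. Rps25, which fell next most, and Rpl11, which stood next highest after Rpl7a, are not shown. Their annotated starts hold no such run either. Rps27l has 2 annotated starts, and a start with such a run was shown by preference.
Rpl22l1: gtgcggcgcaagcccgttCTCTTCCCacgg
Rps27l: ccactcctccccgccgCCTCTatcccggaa
Rps27: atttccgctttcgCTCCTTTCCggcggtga
Rps2: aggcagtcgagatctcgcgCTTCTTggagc
Rpl13: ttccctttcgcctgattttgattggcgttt
Rpl24: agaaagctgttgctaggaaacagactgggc
Rpl7a: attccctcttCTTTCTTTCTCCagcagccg
They lie at chr3:28805493-28805522 (Rpl22l1, plus strand), chr9:66946071-66946100 (Rps27l, plus strand), chr3:90213634-90213663 (Rps27, minus strand), chr17:24720048-24720077 (Rps2, plus strand), chr8:123102335-123102364 (Rpl13, plus strand), chr16:55966260-55966289 (Rpl24, plus strand) and chr2:26910792-26910821 (Rpl7a, plus strand). Each window spans the end of the promoter and the first bases of the transcript.

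Entries for the start were found for 60 of the 80 members. The run, searched on the gene's own strand, was present in 29 of these 60 (48.3%), in 17 of 36 large subunit genes and 12 of 24 small subunit genes, and in 21.2% of the 27025 genes of the table. A gene was counted if any of its annotated starts had the run. An annotated start can lie a few bases from the start that cells use, so a missing run describes the annotation only. Members with and without the run had the same median log2 fold change between Kmt2c KO and WT tumour cells, −0.21 for each. In Kmt2d KO the medians were −0.18 with and −0.16 without it. In the edgeR fit described below, 10 of 29 members with the run and 12 of 31 without passed in Kmt2c KO (18.7% of all genes). In Kmt2d KO 5 of 29 with it and 0 of 31 without passed (2.27% of all genes), a difference that was not tested.

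In H2BMc-positive cells the members spanned a wide range of levels. Mean CPM over the 9 libraries ran from 67.8 for Rpl7l1, through a median of 2280, to 7864 for Rpl41, the shortest protein of the ribosome. The 10 highest members held 25.6% of the members' summed CPM. Each 5′ read marks 1 end of a molecule, so levels do not scale with length, but these genes have many processed pseudogenes, and reads that match several copies are lost to an extent that differs between genes. Levels are therefore compared below within a gene.

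The share of UMIs taken by the members was lower in the tumour cells of both knockouts than in WT. WT libraries stood at 20.6%, 21.0% and 21.2%. Kmt2c KO libraries stood at 19.4%, 18.7% and 17.6%, and Kmt2d KO libraries at 19.2%, 19.1% and 19.5%. No KO library reached the lowest WT library. The difference from WT was −2.39 percentage points for Kmt2c KO and −1.64 for Kmt2d KO, each with an exact two-sided permutation p of 0.10, the smallest that 3 against 3 libraries allow (0.15 adjusted over the 3 pairs). Over the 3 groups an exact permutation of the Kruskal–Wallis statistic gave p = 0.025.

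**Figure D1:**
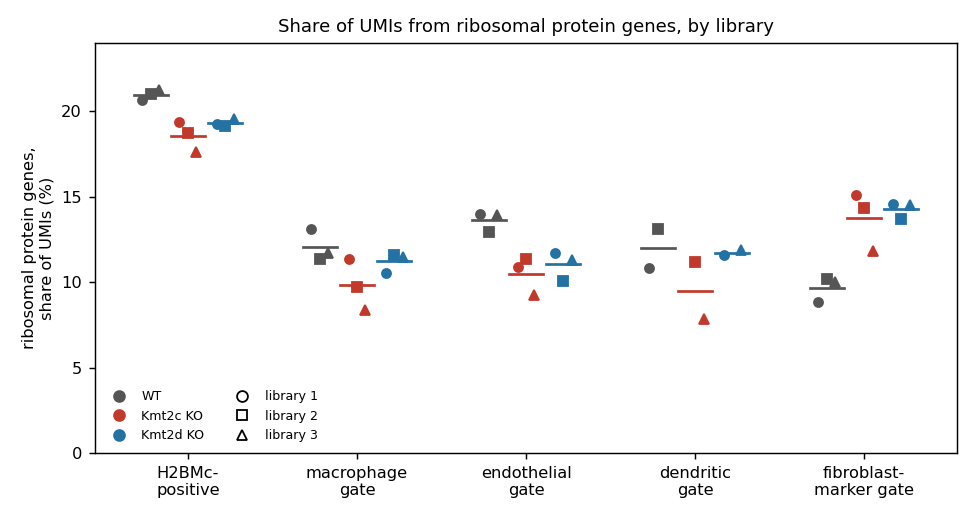
Share of UMIs from the 80 ribosomal protein genes (%, y axis from 0) in H2BMc-positive cells and in 4 marker gates, each point 1 library with at least 20 cells of that kind and each bar the mean of a genotype. H2BMc-positive cells lie above every gate, and both knockouts lie below WT in H2BMc-positive and endothelial cells but above WT in the fibroblast-marker gate.

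This difference moved with the depth of the cells. The share rose with the UMIs per cell from 5000 UMIs upward in 8 of 9 libraries, the exception being WT library 3 with 17.4%, 17.2% and 22.1% in its bins of 5000 to 10000, 10000 to 20000 and 20000 to 60000 UMIs. The median H2BMc-positive cell had 19424.5, 13729 and 24081 UMIs in the WT libraries against 8661 to 11824 in Kmt2c KO and 11222 to 14789 in Kmt2d KO (exact permutation p = 0.0286 over the 3 groups). Among cells of 5000 to 20000 UMIs the KO means lay within 0.125 points of WT, with 18.2% ± 1.36 (SD, n = 3) in WT, 18.2% ± 1.40 for Kmt2c KO and 18.1% ± 0.532 for Kmt2d KO (exact permutation p = 0.993). Depth was not matched within this range. Cells under 10000 UMIs made up 46 of 219, 227 of 648 and 25 of 131 in the WT libraries. They made up 1383 of 2556, 853 of 1977 and 693 of 1674 in Kmt2c KO. In Kmt2d KO they made up 617 of 1370, 487 of 1300 and 363 of 1428. In cells of 20000 to 60000 UMIs the gap was present, at 22.1% ± 0.429 in WT, 20.2% ± 0.602 for Kmt2c KO and 20.7% ± 0.257 for Kmt2d KO, with no overlap of KO and WT libraries (exact permutation p = 0.0107). The bins of 5000 to 10000 and 10000 to 20000 UMIs overlapped (exact permutation p = 0.829 and 0.929). WT libraries held few cells of lower depth, 25 to 227 in the bin of 5000 to 10000, and only WT library 2 had more than 20 cells under 5000 UMIs. What sets the depth of a cell in these libraries was not tested.

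Cycling tumour cells had a larger share. Cells with a UMI of Mki67 or Top2a, markers of dividing cells, exceeded the other tumour cells of the same library by 1.33 ± 0.686 percentage points (SD, n = 9), from 0.533 to 2.35, in 9 of 9 libraries (exact sign-flip permutation p = 0.00391, the smallest possible). The excess was 2.16 ± 0.246 points in WT, 0.813 ± 0.345 for Kmt2c KO and 1.01 ± 0.343 for Kmt2d KO, and no KO library reached the lowest WT library (exact permutation p = 0.10 for each, the smallest possible). Deeper cells are more likely to yield such a UMI, so the depth of the cells moves with this split too. The share of cells so marked was 39.6% ± 5.81 in WT, 35.2% ± 5.27 for Kmt2c KO and 40.7% ± 12.6 for Kmt2d KO.

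UMIs of the small subunit made up less of the members' total in the tumour cells of both knockouts. UMIs of small subunit genes over those of large subunit genes gave ratios of 0.738, 0.748 and 0.744 in the WT libraries, 0.728, 0.710 and 0.724 in Kmt2d KO and 0.697, 0.698 and 0.690 in Kmt2c KO. The 3 genotypes did not overlap in any pair (exact permutation p = 0.00357 over the 3 groups, the smallest possible), and this ratio was formed after the levels had been seen. Without Rpl13, the abundant large subunit gene that stood highest in both knockouts, the ratio of Kmt2c KO still differed from WT by −0.0347 with no overlap, while that of Kmt2d KO differed by −0.0120 with overlap (exact permutation p = 0.2). In cells of 5000 to 20000 UMIs the means were 0.731 ± 0.00865 in WT, 0.687 ± 0.0116 for Kmt2c KO and 0.709 ± 0.0168 for Kmt2d KO, again with no overlap between KO and WT (exact permutation p = 0.025 over the 3 groups). Without Rpl13 these cells gave 0.758, 0.776 and 0.763 in WT and 0.747, 0.742 and 0.718 for Kmt2c KO, without overlap. Kmt2d KO, at 0.771, 0.733 and 0.760, then overlapped WT (exact permutation p = 0.168 over the 3 groups). The ratio is one of UMIs, and reads lost to pseudogene copies enter it.

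**Figure D2:**
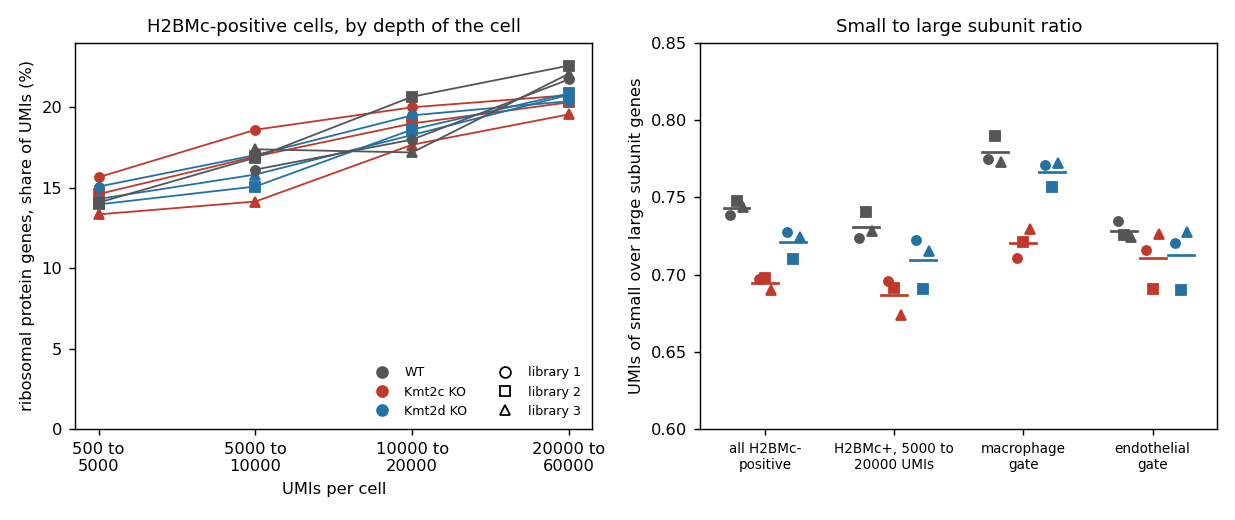
Left, share of UMIs from the 80 genes (%) in H2BMc-positive cells against the UMIs per cell, 1 line per library (bins with at least 20 cells). Right, UMIs of small over large subunit genes (axis from 0.6, points are libraries and bars genotype means) in all H2BMc-positive cells, in those of 5000 to 20000 UMIs and in the macrophage and endothelial gates. The share rises with depth in all genotypes, and the ratio of Kmt2c KO lies below WT in both sets of H2BMc-positive cells and in the macrophage gate.

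Gene by gene, Kmt2c KO tumour cells had lower levels of many members. In an edgeR quasi-likelihood fit of counts summed per library, 27 of the 80 passed an adjusted p of 0.05, 26 lower and 1 higher, where 18.7% of all 14089 genes tested passed and 9.17% passed lower. The median log2 fold change was −0.21 over the members against −0.00 over all genes, and 68 of the 80 lay below 0. Among cells of 5000 to 20000 UMIs the members' median was 0.06, and 3 members passed (Rpl13, Rpl22l1 and Rps27, all among the 27), beside 7.97% of all genes. Leaving out a single library gave 11 to 36 calls, with 15 without WT library 1 (10.1% of all genes), 11 without WT library 2 or WT library 3 (8.73% and 9.5%), 15 without Kmt2c KO library 2 (10.7%) and 36 without Kmt2d KO library 2 (29.1%).

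**Figure D3:**
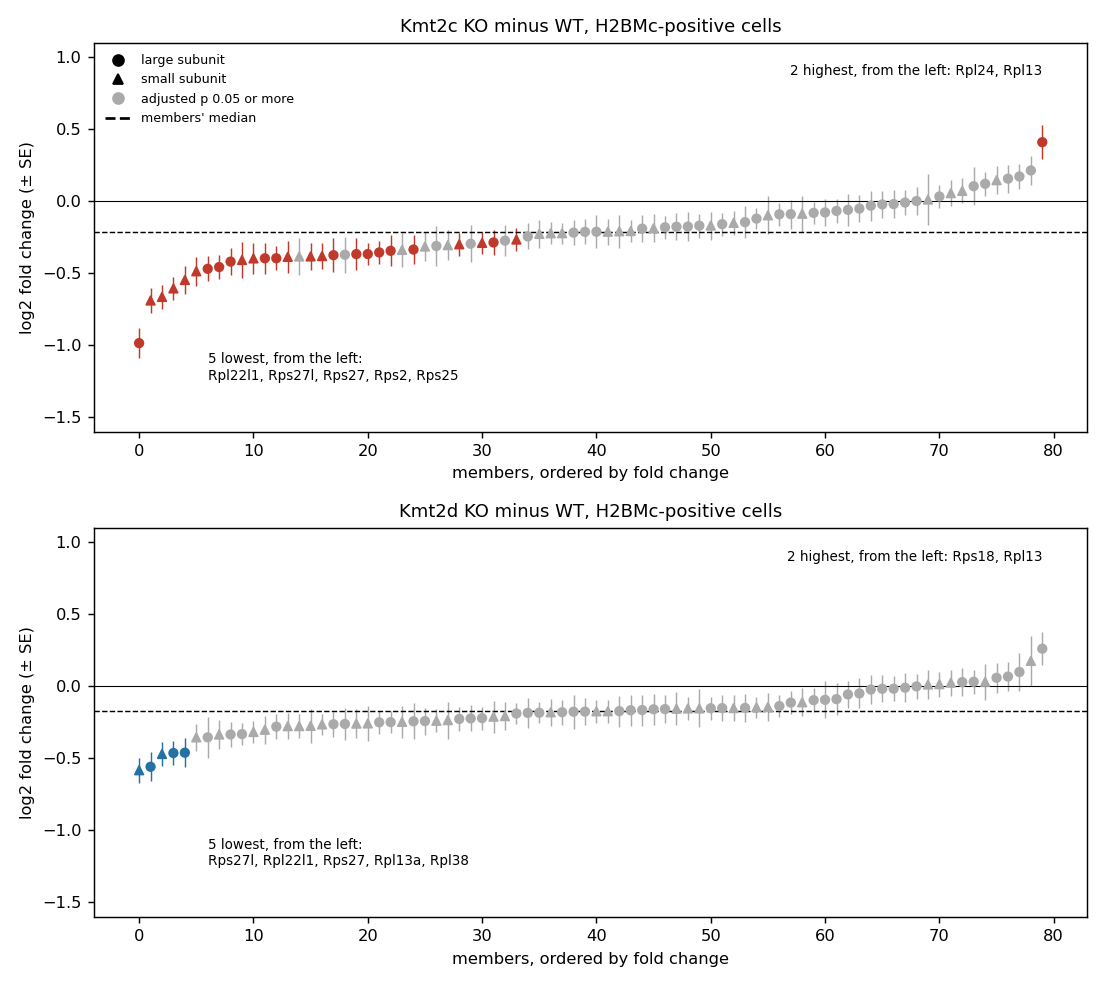
log2 fold change (± SE) of each of the 80 genes in H2BMc-positive cells, ordered from lowest to highest, Kmt2c KO minus WT above and Kmt2d KO minus WT below; coloured genes passed an adjusted p of 0.05 in edgeR, circles are large and triangles small subunit genes, and the dashed line is the members' median. Rpl22l1, Rps27l and Rps27 are the lowest 3 in both knockouts and Rpl13 the highest.

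The strongest fall was in Rpl22l1, the paralogue of Rpl22. It measured 585, 724 and 622 CPM in the WT libraries, 347, 316 and 314 for Kmt2c KO and 420, 475 and 445 for Kmt2d KO. All 6 KO libraries lay below all WT libraries, and Kmt2c KO lay below Kmt2d KO. The log2 fold change was −0.99 (SE 0.10, edgeR adjusted p = 0.000459) in Kmt2c KO and −0.56 (SE 0.10, edgeR adjusted p = 0.0196) in Kmt2d KO. The call in Kmt2c KO held in 20 of 20 alternatives and the one in Kmt2d KO in 14 of 20, with losses when WT library 2 or 3 or Kmt2d KO library 1 or 3 was left out. Rpl22 itself, which represses Rpl22l1 by binding its transcript, changed in Kmt2c KO by −0.36 (SE 0.08, edgeR adjusted p = 0.0119) and did not pass in Kmt2d KO (−0.25, edgeR adjusted p = 0.139).

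Rps27l, the paralogue of Rps27 and a known p53 target, was next. It stood at 425, 434 and 430 CPM in WT, 271, 246 and 285 for Kmt2c KO and 269, 330 and 282 for Kmt2d KO, with no KO library near a WT library. The log2 fold change was −0.69 (SE 0.09, edgeR adjusted p = 0.000997) in Kmt2c KO and −0.58 (SE 0.09, edgeR adjusted p = 0.00737) in Kmt2d KO. Rps27, its more abundant partner, went the same way, from 1332, 1291 and 1295 CPM in WT to 783, 768 and 930 in Kmt2c KO and 899, 1030 and 962 in Kmt2d KO. Its log2 fold change was −0.67 (SE 0.08, edgeR adjusted p = 0.000876) and −0.47 (SE 0.08, edgeR adjusted p = 0.0165). The call of Rps27l in Kmt2d KO was lost without WT library 2, and that of Rps27 without any 1 of the 3 WT libraries or without Kmt2d KO library 1 or 3.

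Rps2, near the mRNA entry channel, and Rps25, which some viral and cellular mRNAs need for internal initiation, completed the 5 lowest in Kmt2c KO. Rps2 measured 3450, 3620 and 3684 CPM in WT and 2444, 2274 and 2360 in Kmt2c KO (log2 fold change −0.61, SE 0.08, edgeR adjusted p = 0.00122), while Kmt2d KO libraries stood between, at 2915, 3204 and 3198 (−0.24, edgeR adjusted p = 0.16). Rps25 measured 573, 588 and 581 CPM in WT, 382, 376 and 438 for Kmt2c KO and 412, 533 and 450 for Kmt2d KO, with log2 fold changes of −0.55 (edgeR adjusted p = 0.00472) and −0.35 (edgeR adjusted p = 0.0879). In cells of 5000 to 20000 UMIs, Rpl22l1 in Kmt2c KO stood at −0.78 and Rps27 at −0.59, and both passed, while Rps27l at −0.29, Rps2 at −0.23 and Rps25 at −0.20 did not.

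Rpl13, a large subunit protein, was the only member called higher. It measured 5316, 5585 and 5365 CPM in WT, 7880, 7528 and 6166 for Kmt2c KO and 7027, 6244 and 6642 for Kmt2d KO, so that every KO library lay above every WT library. The log2 fold change was 0.41 (SE 0.12, edgeR adjusted p = 0.034) in Kmt2c KO and 0.26 (SE 0.12, edgeR adjusted p = 0.284) in Kmt2d KO. The call in Kmt2c KO held in 13 of 20 alternatives and was lost without any 1 of the WT libraries and without Kmt2c KO library 1 or 2. It was also lost in Krt8-positive cells and in cells with no host marker UMI. In cells of 5000 to 20000 UMIs it was 0.66, with an edgeR adjusted p of 0.0346.

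**Figure D4:**
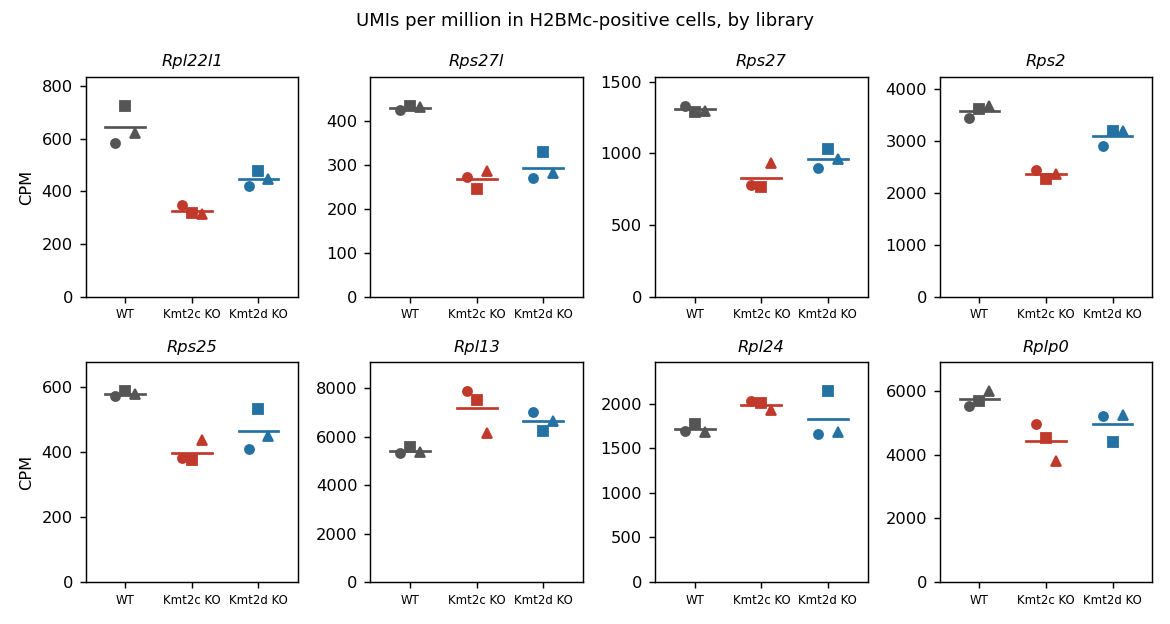
CPM (UMIs per 1000000 UMIs, y axes from 0) of 8 members in H2BMc-positive cells, 1 point per library, bars the mean of 3 libraries. Rpl22l1, Rps27l, Rps27, Rps2 and Rps25 are lower in the Kmt2c KO libraries than in any WT library, Rpl13 and Rpl24 are higher, and Rplp0 lies below WT in all KO libraries without passing the test.

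A second fit set each library's scale by the median member, so that the members' common shift is 0 and a call marks a gene that departs from the other members. On this scale the median of all genes moves to 0.22 in Kmt2c KO and 0.19 in Kmt2d KO, and 28.2% of all genes passed in Kmt2c KO and 5.85% in Kmt2d KO. In Kmt2c KO 19 members departed, 12 upward and 7 downward, a share near that over all genes. Rpl13 (0.62), Rpl24 (0.43), Rpl7a (0.39), Rpl11 (0.37) and Rps20 (0.36) departed furthest upward. Rpl22l1 (−0.77), Rps27l (−0.47), Rps27 (−0.44), Rps2 (−0.38) and Rps25 (−0.32) departed furthest downward. Rpl24, which bridges the subunits, measured 1687, 1775 and 1677 CPM in WT and 2026, 2004 and 1932 in Kmt2c KO, and its level did not pass (0.21, edgeR adjusted p = 0.178) although its departure did (edgeR adjusted p = 0.00749). In cells of 5000 to 20000 UMIs 6 departures were called, Rpl13, Rpl7a, Rps20 and Rpl11 upward and Rpl22l1 and Rps27 downward, all of them among the 19, beside 5.46% of all genes. Leaving out single libraries gave 12 to 29 calls, with 12 without WT library 2 or 3 (15.3% and 14.7% of all genes) and 29 without Kmt2d KO library 2 (35.9% of all genes). The 6 genes called in the cells of 5000 to 20000 UMIs were called in 18 of 18 alternatives. That count includes the set of cells by which they were picked, and the alternatives share libraries and cells.

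In Kmt2d KO tumour cells the shift was of like size but fewer members passed. The median was −0.17, 69 of the 80 lay below 0, and 5 were called, all lower, where 2.27% of all genes passed and 1.23% passed lower. Besides Rpl22l1, Rps27l and Rps27 these were Rpl13a, part of an interferon-gated inhibitor of translation, at −0.46 (SE 0.09, edgeR adjusted p = 0.0207), and Rpl38, known for the selective translation of Hox mRNAs, at −0.46 (SE 0.10, edgeR adjusted p = 0.0465). Both were also called lower in Kmt2c KO, Rpl13a at −0.46 (edgeR adjusted p = 0.0063) and Rpl38 at −0.34 (edgeR adjusted p = 0.0422). Rpl13a measured 1535, 1528 and 1532 CPM in WT and 1059, 1282 and 1068 in Kmt2d KO. Rpl38 measured 1659, 1383 and 1572 CPM in WT and 1004, 1299 and 1125 in Kmt2d KO. Single libraries decided these counts, with 2, 0 and 1 calls without WT library 1, 2 and 3, 1 without Kmt2d KO library 1 or 3, and 10 without Kmt2d KO library 2, where 0.68% to 1.59% of all genes passed in the first 5 of these fits and 5.79% in the last. Among cells of 5000 to 20000 UMIs the median was −0.02, no member passed in edgeR and 6 had an unadjusted p under 0.05, beside 0.493% of all genes called.

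Relative to the other members, 3 genes departed in Kmt2d KO, Rpl13 at 0.44 (SE 0.08, edgeR adjusted p = 0.0159), Rps27l at −0.40 (SE 0.09, edgeR adjusted p = 0.0365) and Rpl22l1 at −0.38 (SE 0.09, edgeR adjusted p = 0.0395). The departure of Rpl13 held in 14 of 18 alternatives, those of Rps27l and Rpl22l1 in 7 of 18 each, and none of the 3 passed without WT library 1, 2 or 3. Leaving out Kmt2c KO library 1 left 1 call, Kmt2c KO library 3 left 5, Kmt2d KO library 1 or 3 left 1 and Kmt2d KO library 2 left 10, where 3.84%, 6.41%, 2.84%, 2.57% and 11.7% of all genes passed. In cells of 5000 to 20000 UMIs no departure was called by edgeR and 12 members had an unadjusted p under 0.05, beside 0.212% of all genes called.

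Between the knockouts no member passed in edgeR, in level (5 with an unadjusted p under 0.05, and 2 called by DESeq2) or in departure (9 unadjusted), where 0.0781% and 0.0852% of all genes passed. The median difference, Kmt2d KO minus Kmt2c KO, was 0.03. Without Kmt2d KO library 2 the calls were 3 in level and 12 in departure, where 19.7% and 16.5% of all genes passed, so that the members' share was below or near that of all genes. Both knockouts are set against the same 3 WT libraries, so their fold changes share that part of the error.

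The counts by role stand beside the 18.7% of all genes called in Kmt2c KO (9.17% called lower) and 2.27% in Kmt2d KO. By role, the 3 paralogues Rpl22l1, Rps27l and Rpl7l1 all fell in Kmt2c KO (3 of 3 called, lowest −0.99, highest −0.40) and 2 of 3 in Kmt2d KO. Rpl7l1, a paralogue of Rpl7, measured 75.5, 81.2 and 70.9 CPM in WT and 55.8, 53.5 and 64.3 in Kmt2c KO (−0.40, edgeR adjusted p = 0.0093). This call held in 17 of 20 alternatives. The losses included the fit without WT library 2 and cells of 5000 to 20000 UMIs (edgeR adjusted p = 0.0631). Of the 3 paralogues only Rpl22l1 passed in those cells. Of the small subunit genes 13 of 32 were called in Kmt2c KO, all lower, with a median of −0.28. Of the large subunit genes 14 of 48 were called, 13 of them lower, with a median of −0.18.

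The P stalk, which recruits elongation factors, had no member called by edgeR (2 of 3 with an unadjusted p under 0.05 in Kmt2c KO and 1 in Kmt2d KO, and Rplp0 called by DESeq2 in Kmt2c KO). Rplp0 measured 5522, 5684 and 5988 CPM in WT and 4946, 4519 and 3809 in Kmt2c KO, which do not overlap, with a log2 fold change of −0.37 (edgeR adjusted p = 0.0623). Rplp1 stood at −0.30 and Rplp2 at −0.21. Of the 5S particle, Rpl5 measured 707, 697 and 768 CPM in WT and 651, 636 and 646 in Kmt2c KO (−0.17, edgeR adjusted p = 0.176). Rpl11 measured 2194, 2246 and 2243 CPM in WT and 2704, 2519 and 2220 in Kmt2c KO (0.16, edgeR adjusted p = 0.291), and departed upward from the other members (0.37, edgeR adjusted p = 0.0038).

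None of the 4 X-linked members passed in level in either knockout, by edgeR, by DESeq2 or at an unadjusted p under 0.05. Rpl10, needed for the subunits to join, stood at −0.08 in Kmt2c KO and −0.02 in Kmt2d KO, Rpl36a at −0.09 and −0.01, and Rps4x at −0.09 and 0.03. Rpl39, of the peptide exit tunnel, stood at 0.12 and 0.03, and its departure of 0.35 in Kmt2c KO passed (edgeR adjusted p = 0.0209) but was lost without any 1 of the WT libraries or Kmt2c KO library 3. Of 9 members on a list for Diamond–Blackfan anaemia, which leaves out others linked to it such as Rps27 and Rps15a, 1 was called by edgeR in Kmt2c KO (Rps19, −0.30) and 0 in Kmt2d KO (3 at an unadjusted p under 0.05 and 1 by DESeq2), with medians of −0.17 in both. Of the 4 small subunit proteins that are ubiquitylated on stalled ribosomes, Rps2 and Rps3 were called lower in Kmt2c KO, Rps10 was not called and Rps20 stood at 0.15 (edgeR adjusted p = 0.325). The counts of these lists, too, stand beside 18.7% of all genes called in Kmt2c KO and 2.27% in Kmt2d KO.

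The host cells of the same tumours serve as a comparison, since they were not edited. They were gated by at least 2 detected markers of 1 class, more than of any other class, and no H2BMc or Krt8 UMI, which gave 7120 cells, 824 macrophage, 447 endothelial, 371 T or NK, 263 dendritic, 118 mural, 13 B and 5084 in a fibroblast-marker gate. Levels in a gate are relative to its summed UMIs and give neither the number of cells nor the RNA per cell. The macrophage gate held C1qa at 2847 CPM and the endothelial gate Egfl7 at 1651 CPM. The fibroblast-marker gate is less certain, because H2BMc-positive cells themselves held its markers Clec3b (130 CPM), Col6a3 (122 CPM) and Pdgfra (76.6 CPM), so its cells and tumour cells without a reporter or Krt8 UMI cannot be told apart. The same genes measured 39.4, 28.9 and 12.6 CPM in the macrophage gate and 7.31, 6.58 and 5.12 CPM in the endothelial gate. RNA carried over from other cells into host barcodes was not measured, and its part in the host gates was not tested.

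The members' share in endothelial cells was lower in tumours of both knockouts. It was 14.02%, 12.9% and 13.9% in WT libraries, 10.9%, 11.3% and 9.24% for Kmt2c KO and 11.7%, 10.1% and 11.3% for Kmt2d KO, with differences of −3.15 and −2.58 points and no overlap (exact permutation p = 0.10 each, the smallest possible, and 0.05 over the 3 groups). In the macrophage gate it was 13.1%, 11.4% and 11.7% in WT, 11.4%, 9.75% and 8.37% for Kmt2c KO and 10.6%, 11.6% and 11.5% for Kmt2d KO. The 3 Kmt2c KO libraries lay below the WT libraries (−2.24 points, exact permutation p = 0.10), with the highest of them at 11.37% and the lowest WT library at 11.39%, and Kmt2d KO overlapped WT (−0.857 points, exact permutation p = 0.30). The macrophages of Kmt2c KO libraries were also shallower, with 1849 ± 196 UMIs per median cell against 2825 ± 620 in WT. For endothelial cells the UMIs per median cell gave an exact permutation p of 0.254 over the 3 groups. The part of depth in the shares of these gates was not tested. The dendritic gate, with 2 libraries of 20 or more cells per genotype, overlapped between genotypes (exact permutation p = 0.667 and 1 against WT, where 0.333 is the smallest possible).

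The fibroblast-marker gate went the other way, with 9.67% ± 0.719 (SD, n = 3) in WT, 13.8% ± 1.74 for Kmt2c KO and 14.3% ± 0.480 for Kmt2d KO and no overlap of KO and WT (exact permutation p = 0.10 each). Because this gate holds most of the gated cells, the direction over all host cells depends on it. With it, host cells stood at 11.4% in WT, 13.3% for Kmt2c KO and 13.8% for Kmt2d KO, and the log2 ratio of the share in tumour cells to that in host cells differed from WT by −0.389 and −0.402, which is given without a test because both shares in it differ in opposite directions. Without it, a choice made after the values were seen, host cells stood at 12.9% ± 0.351, 10.3% ± 1.62 and 11.4% ± 0.279, and that log2 ratio was higher in KO libraries by 0.157 and 0.0589, with overlap (exact permutation p = 0.20 each). Against endothelial cells alone the log2 ratio was higher by 0.208 and 0.187 in Kmt2c and Kmt2d KO, with no overlap with WT (exact permutation p = 0.10 each). Against macrophages alone it differed from WT by 0.129 and −0.0131, with overlap (exact permutation p = 0.40 and 0.90).

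Gene by gene fits were made within the endothelial and macrophage gates. Within the endothelial gate the median was −0.41 in Kmt2c KO, with 77 of 80 below 0 and 11 called by edgeR, where 5.66% of the 5390 genes tested passed. Within it Rpl22l1 stood at −0.89 (edgeR adjusted p = 0.0117), Rps27 at −0.78 (edgeR adjusted p = 0.0165), Rps2 at −0.69 (edgeR adjusted p = 0.023) and Rps25 at −0.69 (edgeR adjusted p = 0.0383), 4 of the 5 genes lowest in tumour cells of the same libraries. Rpl22l1 measured 394.5, 359 and 319 CPM in endothelial cells of the WT libraries and 196, 193 and 177 in Kmt2c KO, without overlap. Rpl13 did not differ in level there (0.08), but departed from the other members upward (0.46, edgeR adjusted p = 0.0325), as did Rps20. These fits were added after the values in tumour cells were known.

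In Kmt2d KO, endothelial cells had a median of −0.33 with 79 of 80 members below 0, no member called by edgeR and 33 with an unadjusted p under 0.05, where 0.0186% of all genes passed. Within the macrophage gate 2 members were called lower in Kmt2c KO, Rps25 at −0.78 (edgeR adjusted p = 0.0435) and Rps3a1 at −0.60 (edgeR adjusted p = 0.0431), with a median of −0.31 and 75 of 80 below 0, where 9.46% of 4430 genes passed. In Kmt2d KO the macrophage median was −0.11, and no member was called by edgeR with 2 at an unadjusted p under 0.05, where 2.33% of all genes passed. The subunit ratio in macrophages was 0.779 ± 0.00903 in WT, 0.720 ± 0.00963 for Kmt2c KO and 0.766 ± 0.00878 for Kmt2d KO, with no overlap in any pair (exact permutation p = 0.00357). Without Rpl13 the macrophages of Kmt2c KO still differed by −0.0519 with no overlap, while those of Kmt2d KO differed by −0.00607 with overlap (exact permutation p = 0.6, and 0.0714 over the 3 groups). In endothelial cells the ratio was 0.728, 0.711 and 0.713 with overlap (exact permutation p = 0.511).

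Between cell kinds of the same tumour, H2BMc-positive cells had the highest levels of nearly every member. In a fit with the library as a block, 79 of 80 members were lower in the macrophage gate (median log2 −0.92), 76 in the endothelial gate (−0.74), 77 in the dendritic gate (−0.94, 6 libraries), 77 in the T or NK cell gate (−1.06, 4 libraries) and 80 in the fibroblast-marker gate (−0.77), and no member was called higher in any of the 5. The shares of all 11641 genes called lower were 32.8%, 32.3%, 29.9%, 25.6% and 25.5% in the same order. The T or NK cell gate came from Kmt2c KO libraries 2 and 3 and Kmt2d KO libraries 1 and 3, with no WT library. Gated host cells were shallower than tumour cells, with macrophages at 1685 to 3497 UMIs per median cell and T or NK cells at 964 to 1834.

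**Figure D5:**
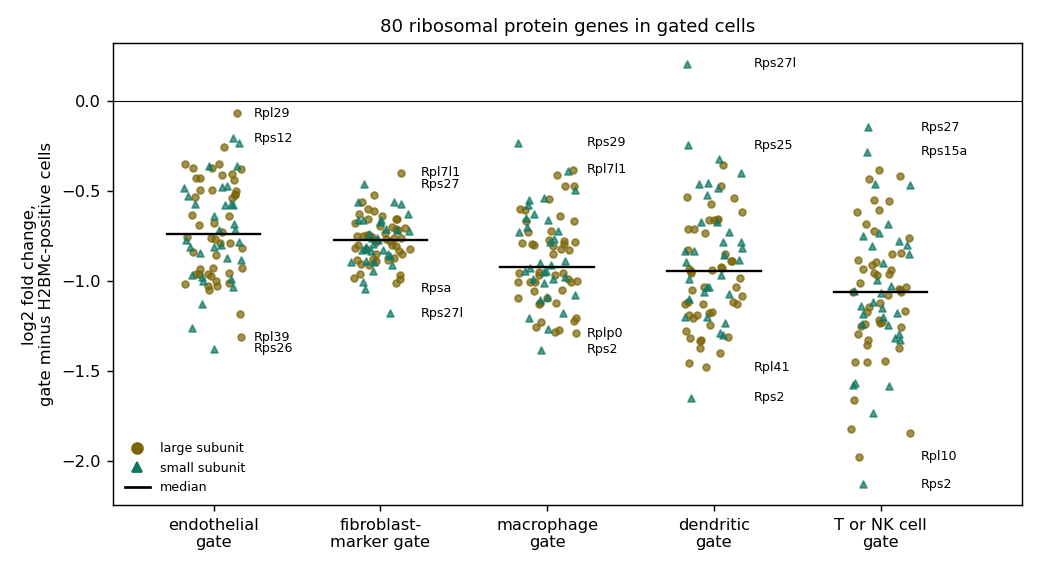
log2 fold change of each of the 80 genes in 5 marker gates against H2BMc-positive cells of the same libraries; circles are large and triangles small subunit genes, the bar is the median, and the 2 lowest and 2 highest genes of each gate are named. Nearly all points lie below 0, with Rps2 lowest in the macrophage, dendritic and T or NK gates and Rps27l of dendritic cells above 0.

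The members differed in how much lower they were, and the exceptions differed between cell kinds. Rps2 was the lowest in 3 gates, at −1.38 in macrophages (SE 0.13), −1.65 in dendritic cells (SE 0.16) and −2.13 in T or NK cells (SE 0.20), and all 3 passed in edgeR. It measured 2274 to 3684 CPM in H2BMc-positive cells, a range above those of macrophages (834 to 1884 CPM) and of T or NK cells (553 to 1071 CPM). In endothelial cells Rps26 (−1.38), Rpl39 (−1.31) and Rps4x (−1.26) were lowest. Rpl10 in T or NK cells stood at −1.98.

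Members close to their tumour-cell level were few. In endothelial cells Rpl29, a heparin-binding protein of the large subunit, measured 761 to 1313 CPM against 1020 to 1213 CPM in H2BMc-positive cells (log2 −0.07, edgeR adjusted p = 0.652), and Rps12 stood at −0.21. In macrophages Rps29 measured 1501 to 2698 CPM against 1791 to 2422 CPM (−0.23, edgeR adjusted p = 0.126). In dendritic cells Rps27l measured 306 to 562 CPM against 246 to 434 CPM (0.21, edgeR adjusted p = 0.333), while T or NK cells had 51.4 to 176 CPM. These T or NK cell levels rest on few UMIs in some libraries. In T or NK cells Rps27 (−0.15) and Rps15a (−0.28) did not pass. This gate came from KO libraries only, so neither gene was compared with WT tumour cells there. Of these genes, Rps27l and Rps27 were also called lower in tumour cells of both knockouts and Rps15a in those of Kmt2c KO (−0.41, edgeR adjusted p = 0.0425).

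Relative to the common shift, 42 members departed in macrophages, 53 in endothelial cells, 46 in dendritic cells, 38 in T or NK cells and 18 in the fibroblast-marker gate, where 62.1%, 59.5%, 51.3%, 45.8% and 75.6% of all genes passed. Rps27l in dendritic cells (1.14), Rps27 in T or NK cells (0.93), Rpl29 in endothelial cells (0.66) and Rps29 in macrophages (0.66) departed furthest upward. Rps2 in T or NK cells (−1.11), dendritic cells (−0.69) and macrophages (−0.48) and Rps26 in endothelial cells (−0.65) departed furthest downward. In the fibroblast-marker gate the range was narrow, from −0.42 for Rps27l to 0.37 for Rpl7l1.

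Genes that work with the members were followed from lists of the same pathway, in H2BMc-positive cells. In Kmt2c KO, 5 of 20 translation factors and other TOP mRNAs were called by edgeR, with Hnrnpa1 (−0.67), Eif3e (−0.50) and Eef1b2 (−0.32) lower and Eif4a2 (0.66) and Vim (0.37) higher, and 18 of the 20 lay below 0. Of 40 ribosome biogenesis genes 3 were called, all lower, the nucleolar proteins Npm1 (−0.54), Nhp2 (−0.44) and Fbl (−0.40). Of 78 mitochondrial ribosomal proteins 12 were called, all lower, with Mrpl9 at −0.57, and the median was −0.15. Of the 4 tested subunit genes outside the naming pattern none was called by edgeR or had an unadjusted p under 0.05. Fau measured 3613, 3664 and 3701 CPM in WT and 3751, 3792 and 3417 in Kmt2c KO.

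Of 18 genes that control TOP mRNAs and ribosome synthesis, 4 were called in Kmt2c KO. Myc was higher, at 67.9, 75.4 and 62.5 CPM in WT and 89.8, 91.9 and 108 in Kmt2c KO (0.49, edgeR adjusted p = 0.00981), as was Mxi1 (0.41), which opposes Myc. Trp53 was lower, at 182, 190 and 193 CPM in WT and 158, 137 and 126 in Kmt2c KO (−0.42, edgeR adjusted p = 0.0332), as was Tia1 (−0.25). In Kmt2d KO the calls were 1 of 40 biogenesis genes (Nhp2, −0.46), 1 of 78 mitochondrial ribosomal proteins (Mrps11, −0.32) and 0 in the other 3 lists (5 translation factors, 2 control genes and 0 outside subunits at an unadjusted p under 0.05). The shares called are to be read beside the 18.7% and 2.27% of all genes given above.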

How the data were processed

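Single-cell suspensions of 9 tumours were sequenced with a 5′ 10x kit, and the authors made 1 aggregated matrix of deposited counts, UMIs per gene and barcode. The submitters' processing notes name Cell Ranger 7.0.1 and mm10. The sources used here do not say whether intronic reads were counted or whether aggregation equalised read depth. A barcode's library came from its suffix, and its genotype from a letter (C, D or X) of the aggregation table. That table does not spell the genotypes out. C was taken to stand for the Kmt2c knockout, D for the Kmt2d knockout and X for unedited cells. This was inferred from names used by the study and its sample titles. Every comparison between genotypes rests on this inference, which the counts of Kmt2c and Kmt2d cannot check. Libraries are numbered within a genotype in the order of that table, which pairs nothing. Doublets were not called, and cells with no host marker UMI were an alternative. That alternative also drops tumour cells that themselves hold markers of the fibroblast list.

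Total UMIs per library over all barcodes ran from 2.15e+07 to 1.26e+08. UMIs were summed per library in H2BMc-positive cells and per library and gate (at least 20 cells). The edgeR 4.0.16 quasi-likelihood test (filterByExpr, TMM, Benjamini–Hochberg adjustment over all genes tested) was fitted to all 9 libraries, and DESeq2 1.42.0 served as an alternative. Departures used the median over members of count over geometric mean as size factor. Shares were compared by exact permutation over libraries (scipy 1.17.1). The tests were checked on simulated data. The members, their role lists and the related lists were chosen with earlier results of these data known. Genes are named as the 5 highest and 5 lowest members of each knockout contrast and the 3 highest and 3 lowest of each gate, by role (P stalk, 5S particle, X-linked, paralogues), by the 3 highest and 3 lowest mean levels, and as the extremes of each related list. Other called genes were named after their values were seen. A few genes that this rule names are not reported here. Promoter runs were a C and at least 4 pyrimidines, starting within 5 bases of the RefSeq start (GRCm38.p6).

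Other gates, depths, mitochondrial limits, filters, scalings, tools and single libraries left out were tried. Counting error alone is small in the sums of H2BMc-positive cells, but larger in gates with few and shallow cells, such as T or NK cells. In both, n = 3 tumours per genotype limits precision.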

Additional observations from a re-analysis of the deposited data

Results flagged for a closer look

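The share of UMIs from ribosomal protein genes differed between genotypes in opposite directions in 2 kinds of cells of the same libraries. In the fibroblast-marker gate it was higher than in WT by 4.08 percentage points in Kmt2c KO and by 4.59 points in Kmt2d KO, while in H2BMc-positive cells the differences were −2.39 and −1.64 points, and in each case no KO library overlapped a WT library. Over all gated host cells the share was 2.47 points higher in Kmt2d KO than in WT, again without overlap and against the direction in H2BMc-positive cells. The log2 ratio of the share in tumour cells to that in the fibroblast-marker gate of the same library differed from WT by −0.678 in Kmt2c KO and −0.681 in Kmt2d KO, and the ratio to all gated host cells by −0.389 and −0.402. In Kmt2c KO the share over all gated host cells overlapped with WT. Elsewhere these ratios combine shares that already separate in opposite directions, so the difference between the effects was not tested independently. Markers of the fibroblast-marker gate were also present in H2BMc-positive cells (Clec3b at 130 CPM against 539 CPM in the gate, Pdgfra at 76.6 against 217 CPM), and its median cell held 4323 ± 2028 UMIs in Kmt2d KO against 7327 ± 1491 in WT (SD, n = 3 each). Their part in the difference was not tested.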

How the results depend on the processing

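No paired analysis was possible because the columns carry library names and not the replicate numbers of the labels. This concerns the comparisons between genotypes, while cells of 1 library were compared with the library as a block. Of the alternatives to the principal results, 318 kept direction and side of the threshold (or moved by less than 1 SD, or for counts less than 1.5 times), 27 moved, 9 reversed, 15 rose past the limit and 30 fell short of it. For named genes 1122 were kept, 146 lost and 65 gained a call and 1 reversed. The cause of a change was not tested.

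In cells of 5000 to 20000 UMIs the share differed from WT by −0.0744 points in Kmt2c KO and −0.125 in Kmt2d KO, and between knockouts by −0.0505 (reversed). There the medians were 0.058 in Kmt2c KO (reversed), −0.016 in Kmt2d KO and −0.072 between knockouts (reversed), Rpsa in Kmt2c KO stood at 0.067 (reversed), 3 and 0 members were called in level (7.97% and 0.493% of all genes) and 6 and 0 in departure (5.46% and 0.212%), by edgeR (6 and 12 members at an unadjusted p under 0.05 where 0 were called). In cells with no host marker UMI the share differed by −4.22 and −3.63 points, the medians were −0.40 and −0.39, and 49 and 24 members were called (11.2% and 0.939% of all genes). This set held only 26, 81 and 25 cells in the WT libraries, against 176 to 770 in the KO libraries. It drops most tumour cells, since 52.0% of H2BMc-positive cells had a UMI of Pdgfra and 57.4% one of Col6a3. In cells without Mki67 or Top2a UMIs the share differed by −1.57 and −0.978, the medians were both −0.10, and 12 and 2 were called (17.5% and 1.49%). Krt8-positive cells gave 17 calls in Kmt2c KO (13.4%). With at least 2 H2BMc UMIs the median was −0.15 in Kmt2c KO and −0.0086 between knockouts (reversed), with 1 call in level (1.67%) and 1 in departure (3.21%) in Kmt2d KO and 2 departures between knockouts (1.77%). A mitochondrial limit of 5% gave 9 calls (2.9%) and 5 departures (12%) in Kmt2d KO. The median share per cell, an alternative chosen after seeing the data, differed by −2.41 in Kmt2d KO.

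Without the low-count filter the medians were −0.18 and −0.14, with 2 calls in level (2.22%) and 2 in departure (2.55%) between knockouts. DESeq2 called 36 members in Kmt2c KO (20.7%), 17 in Kmt2d KO (4.99%) and 2 between knockouts (4.12%), and a fit of only the 2 groups compared called 3 in Kmt2d KO (1.36%). With at least 3 markers the fibroblast-marker gate stood at 2.73 and 2.85 points above WT and all host cells of Kmt2d KO at 1.32, the log2 ratio to host cells was −0.273 and −0.265, and dendritic cells had 35 calls lower in level (8.76%) and 12 departures (19.4%). Without the fibroblast-marker gate, also chosen after seeing the data, host cells differed by −2.56 and −1.48 points (both reversed), and the log2 ratio by 0.157 and 0.0589 (both reversed) and by −0.0978 between knockouts. T or NK cells of at least 1500 UMIs gave 47 calls lower from 2 libraries (13.8%).

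Leaving out 1 library gave, for Kmt2c KO, Kmt2d KO and the knockouts against each other, 11 to 36, 0 to 10 and 0 to 3 calls in level, 12 to 29, 0 to 10 and 0 to 12 departures, and medians of −0.24 to −0.16, −0.20 to −0.16 and −0.028 to 0.059, the last reversed at −0.028 without Kmt2c KO library 3. In the same order the share ranged from −2.80 to −1.91, −1.81 to −1.51 and 0.261 to 1.16, the log2 ratio to host cells from −0.466 to −0.336, −0.427 to −0.387 and −0.0654 to 0.0644, and the share of all host cells from 1.11 to 2.91, 2.28 to 2.74 and −0.440 to 1.35. Dendritic cells ranged from −4.13 to −0.827, −1.41 to 0.865 and 0.554 to 3.86, endothelial cells from −3.58 to −2.53, −2.93 to −2.10 and −0.0484 to 1.05, the fibroblast-marker gate from 3.39 to 5.06, 4.18 to 4.87 and −0.462 to 1.20, and macrophages from −3.01 to −1.51, −1.20 to −0.337 and 0.658 to 2.15.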

Other observations

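H2BMc-positive barcodes that were removed for a mitochondrial share of 15% or more had smaller shares of ribosomal protein UMIs than kept H2BMc-positive cells (17.6% to 21.2%), 7.01% to 11.3% by library, with 9 to 156 barcodes each. Mitochondrial UMIs count in the total, so this selection itself lowers the share, to an extent that was not measured. These barcodes were not used in any comparison.

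Between tumours of 1 genotype, Kmt2c KO library 3 stood lowest of the 3 Kmt2c KO libraries in the members' share in H2BMc-positive cells (17.6%), macrophages (8.37%) and endothelial cells (9.24%). In dendritic cells (7.86%) it stood below library 2, the only other Kmt2c KO library with at least 20 such cells. The Neat1 level of Kmt2c KO library 3, 181 CPM in H2BMc-positive cells, was the highest of the 9 libraries, and the WT libraries stood at 71.6 to 74.4 CPM. In Kmt2d KO the highest Neat1 level, 134 CPM, was in library 2, which had the lowest share in H2BMc-positive cells (19.1%) and endothelial cells (10.1%) of its genotype but the highest in macrophages (11.6%). Neat1 is a nuclear RNA, and its part in the shares was not tested.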
